A study of Mus musculus with 16 samples.

Results

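The haematopoietic stem cell genes are a list of 31 genes that encode regulators, surface proteins and secreted factors of blood stem cells. They were chosen by name, and each was read from the array row that carried its symbol alone, with the highest mean over 16 arrays where there were several rows. Such a row was found for 30 of the 31 genes, out of 19937 genes with a row of their own, and Ly6a, the gene of the sort protein Sca1, was not analysed here. RNA was taken from C57BL/6J mice that were wild-type (WT) or Parp-2-/-, which lack a nuclear enzyme that senses DNA breaks. From bone marrow depleted of cells with lineage markers (Lin-), LSK cells were sorted as Sca1+ c-Kit+, the fraction that holds stem cells and multipotent progenitors. MP cells, the myeloid progenitors, were sorted as Sca1- c-Kit+. Mice were unirradiated, or their cells were taken 2.5 hours after 5 Gy of gamma radiation. Each of the 8 combinations of genotype, cell type and irradiation had 2 arrays, 1 per pool of at least 3 mice, and the labels give no age and no further account of how separate the pools were, so the p-values measure the spread between these pools, which may be partly technical. How the Parp-2 allele was made is not given in the sources used here.

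Stem cells in adult marrow divide rarely and keep the capacity to rebuild all blood lineages. A network of transcription factors maintains that state, and surface receptors tie the cells to ligands of the marrow niche. As cells commit to a lineage, much of this programme is turned down, while some members, such as Kit and Runx1, stay in use in progenitors. LSK is a mixture in which long-term stem cells are a minority, so in these bulk samples fewer cells of a type and less RNA per cell cannot be told apart.

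The Parp2 row served as a check of the genotype labels. Its level lay between 5.70 and 6.77 log2 units on the 4 Parp-2-/- LSK arrays and between 7.40 and 7.96 on the 4 WT LSK arrays, and between 6.74 and 7.11 against 7.98 and 8.40 in MP cells. The mean difference was -1.43 log2 units (exact two-sided permutation test within cell type and irradiation state, p = 0.00154, 1296 arrangements). The cell type labels were checked against marker lists. Of 12 granulocyte and monocyte markers, 7 were called lower in LSK cells and 0 higher, where 17.9% of all rows were called lower. Of 8 lymphoid priming markers, 6 were called higher and 0 lower, where 21.4% of all rows were called higher. On all 16 arrays, 2 of the 12 and 4 of the 8 (Il7r, Rag1, Rag2 and Ccr9) were below the array median. A level there is not shown to be above background. The genes named next were picked from these lists after their values were seen, so they illustrate the lists and are no separate check. In LSK cells the myeloid precursor genes Ms4a3 (-3.19 ± 0.18 SE, adjusted p = 1.26e-06) and Elane (-2.87 ± 0.17, adjusted p = 1.6e-06) were lower than in MP cells, and the lymphoid priming genes Dntt (3.53 ± 0.17, adjusted p = 2.75e-07) and Flt3 (1.97 ± 0.12, adjusted p = 1.6e-06) were higher, all in limma. Array medians ran from 4.74 to 4.92 log2 units.

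Promoter sequences are shown for the 4 members that changed with irradiation in LSK cells, so that their layout can be set beside those results. The windows are from RefSeq (GRCm38.p6), run 5′ to 3′ along the gene, and hold 250 bases before and 50 bases after an annotated start. Capitals mark matches on either strand to the searched letters TGTGGT (RUNX), CAGCTG (an E-box) and CCAAT.
Runx1, the more 5′ start, chr16:92826025-92826324, minus strand: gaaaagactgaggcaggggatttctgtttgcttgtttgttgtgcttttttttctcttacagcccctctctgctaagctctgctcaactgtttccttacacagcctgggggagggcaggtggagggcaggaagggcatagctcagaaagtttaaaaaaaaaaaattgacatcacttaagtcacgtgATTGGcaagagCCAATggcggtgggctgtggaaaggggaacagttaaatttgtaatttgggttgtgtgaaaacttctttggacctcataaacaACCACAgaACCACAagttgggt
Runx1, the more 3′ start, chr16:92697280-92697579, minus strand: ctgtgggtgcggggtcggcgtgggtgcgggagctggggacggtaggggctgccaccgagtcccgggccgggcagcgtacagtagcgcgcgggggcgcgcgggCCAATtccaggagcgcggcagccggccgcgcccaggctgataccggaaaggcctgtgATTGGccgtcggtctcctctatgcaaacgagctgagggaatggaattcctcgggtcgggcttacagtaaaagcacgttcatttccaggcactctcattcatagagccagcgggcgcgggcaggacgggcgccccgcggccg
Gata2, the more 5′ start, chr6:88193641-88193940, plus strand: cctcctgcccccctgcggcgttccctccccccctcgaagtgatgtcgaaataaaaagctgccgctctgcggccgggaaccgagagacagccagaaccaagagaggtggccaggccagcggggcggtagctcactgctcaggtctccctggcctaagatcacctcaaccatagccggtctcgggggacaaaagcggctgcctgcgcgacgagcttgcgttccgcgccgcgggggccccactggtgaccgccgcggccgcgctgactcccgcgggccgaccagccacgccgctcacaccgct
Gata2, the more 3′ start, chr6:88198414-88198713, plus strand: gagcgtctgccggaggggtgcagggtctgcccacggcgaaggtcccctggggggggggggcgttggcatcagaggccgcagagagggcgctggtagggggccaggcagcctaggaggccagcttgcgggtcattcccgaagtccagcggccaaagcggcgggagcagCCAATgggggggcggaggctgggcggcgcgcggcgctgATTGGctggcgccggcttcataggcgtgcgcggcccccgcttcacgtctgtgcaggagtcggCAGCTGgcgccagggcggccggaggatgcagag
Mllt3, the more 5′ start, chr4:88033358-88033657, minus strand: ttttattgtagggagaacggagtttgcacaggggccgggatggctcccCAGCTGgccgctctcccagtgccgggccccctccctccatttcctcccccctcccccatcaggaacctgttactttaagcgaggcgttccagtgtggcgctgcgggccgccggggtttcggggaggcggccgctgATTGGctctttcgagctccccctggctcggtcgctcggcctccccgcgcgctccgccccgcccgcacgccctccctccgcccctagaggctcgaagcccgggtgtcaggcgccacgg
Txnip, chr3:96557707-96558006, plus strand: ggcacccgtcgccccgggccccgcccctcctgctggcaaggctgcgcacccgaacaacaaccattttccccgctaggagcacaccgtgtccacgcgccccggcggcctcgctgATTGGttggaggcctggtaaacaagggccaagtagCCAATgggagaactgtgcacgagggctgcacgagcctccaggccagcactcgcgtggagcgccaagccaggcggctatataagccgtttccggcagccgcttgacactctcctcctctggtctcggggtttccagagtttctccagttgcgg

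Of the members, 24 had a window in the RefSeq table, 6 of them several, which made 31 windows. The median GC content of these windows was 60%, with a range of 37.3% to 75.7%, beside a median of 52.7% over all 32851 windows of the same length. The more 5′ Runx1 window held 2 copies of TGTGGT on the opposite strand, both after the start, and a GC content of 45%. It was the single member window with that match (3.23% of 31 windows, beside 16.8% of all windows). The letters CAGCTG were found in 6 member windows (19.4%, beside 16.3% of all), those of Gata2, Gata3, Mllt3, Procr, Robo4 and Slamf1. The letters CCAAT, searched after the data were seen, were in 13 member windows (41.9%, beside 37.4%). Both Runx1 windows, both Mllt3 windows, the more 3′ Gata2 window and the Txnip window were among these. The more 3′ Mllt3 window is not printed above. GGGCGG, a GC-box also searched after the data were seen and not capitalised above, was in 19 member windows (61.3%, beside 35.7%), of 17 genes. The Kit windows overlap and share their match, which was counted in each. Member windows were also richer in GC than all windows, and the part of this in the GGGCGG share was not tested. The GATA letters AGATAA were in 2 windows (6.45%, beside 11.2%), the TATA box letters TATAAA in 1 (3.23%, beside 13.6%) and the ETS letters CCGGAAG in 0 (beside 8.86%). A match is a description of letters only.

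The first comparison asked which of these genes differ between LSK and MP cells. Averaged over genotype and irradiation, 20 of 30 members were higher in LSK cells and 1 was lower at an adjusted p under 0.05 (limma, Benjamini-Hochberg over 22961 rows). Called differences were common: 39.3% of all rows passed, 21.4% in the direction of LSK cells and 17.9% in that of MP cells. The median difference was 0.38 log2 units over the members and 0.12 over all rows. What set a few members apart from the bulk of rows was size. Hlf, Mecom, Angpt1 and Erg were called and at least 2-fold higher, 4 of 30, where 0.440% of all rows were, a rule added after the data were seen. Ordered by the signed difference among 22961 rows, Hlf was at place 5, Mecom at 12, Angpt1 at 29 and Erg at 84.

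**Figure D1:**
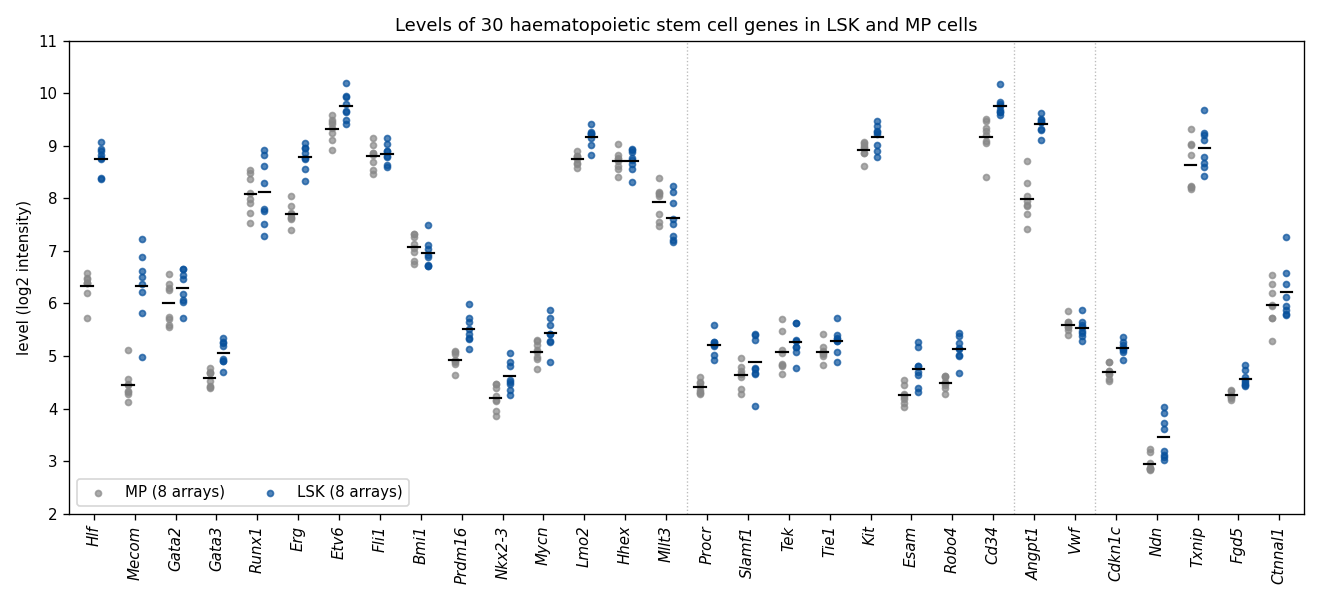
Level (log2 intensity, vertical axis) of the 30 measured stem cell genes on 8 MP arrays (grey) and 8 LSK arrays (blue), with bars at the means and dotted lines between the roles (transcription factors and chromatin regulators, surface proteins, secreted factors, others). The LSK and MP points of Hlf, Erg and Angpt1 stand apart, while those of Runx1, Fli1, Hhex and Vwf cover each other. Levels of different genes cannot be compared on this scale.

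Among transcription factors, Hlf showed the clearest separation. Hlf, a PAR bZIP factor that marks stem cells, lay between 8.36 and 9.08 log2 units on the 8 LSK arrays (median 8.79) and between 5.71 and 6.57 on the 8 MP arrays (median 6.39). Every LSK array was above every MP array, by well over the spread within either cell type. The difference was 2.42 ± 0.11 log2 units (SE), 5.36-fold (adjusted p = 2.75e-07). It was called in each condition alone, at 2.51 ± 0.23 in unirradiated WT, 2.54 ± 0.23 in unirradiated Parp-2-/-, 2.08 ± 0.23 in irradiated WT and 2.56 ± 0.23 in irradiated Parp-2-/- mice.

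Mecom, which encodes the zinc-finger factor Evi1 needed for stem cell self-renewal, lay between 4.98 and 7.23 in LSK cells (median 6.43) and between 4.13 and 5.11 in MP cells (median 4.39). The ranges met in 1 LSK array, pool 1 of irradiated Parp-2-/- cells at 4.98, whose partner pool was at 6.88. The difference was 1.87 ± 0.24 (3.65-fold, adjusted p = 0.000209), with 7 of 8 MP arrays below the array median, where a level is not shown to be above background, so the size is uncertain. A second Mecom row was called higher in LSK cells (adjusted p = 0.00714). It was below the array median on all MP arrays and on most LSK arrays, so its size is not measured. By condition the first row was called in unirradiated WT (2.09 ± 0.48, adjusted p = 0.0285) and in unirradiated Parp-2-/- mice (2.25 ± 0.48, adjusted p = 0.0249). The WT value is a lower bound because both MP arrays were below the array median. The WT call was lost without any 1 of its 4 arrays (adjusted p 0.0768 to 0.146), and the Parp-2-/- call without pool 1 of the LSK cells (0.138) or pool 2 of the MP cells (0.248).

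Erg, an ETS factor required for stem cell maintenance, ranged from 8.33 to 9.05 in LSK cells (median 8.82) and from 7.40 to 8.04 in MP cells (median 7.67). The 2 ranges did not overlap. The difference was 1.08 ± 0.12 (2.11-fold, adjusted p = 6.45e-05), and it was called in each condition alone, between 1.02 and 1.14. The single-condition calls were not stable to leaving out an array: they held in 13 of 16 such fits in unirradiated WT, 8 in unirradiated Parp-2-/-, 9 in irradiated WT and 12 in irradiated Parp-2-/- mice (adjusted p up to 0.298). Without pool 2 of the irradiated WT LSK cells the value there was 0.67 (adjusted p = 0.0829), and that call was also lost with a pool block and with median centring. All 4 were lost when the arrays of the comparison were fitted alone. The related ETS factor Fli1, used across blood and endothelial lineages, covered 8.59 to 9.15 in LSK cells and 8.46 to 9.14 in MP cells, with a difference of 0.05 (95% interval -0.16 to 0.26, adjusted p = 0.687). Etv6, an ETS repressor needed for stem cell survival, was higher in LSK cells by 0.44 ± 0.13 (adjusted p = 0.02), with overlapping ranges.

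Further factors were higher in LSK cells by smaller amounts. Prdm16, a chromatin regulator that preserves stem cells, was higher by 0.59 ± 0.09 (adjusted p = 0.000784), and its lowest LSK array at 5.14 was just above its highest MP array at 5.11. Gata3 was higher by 0.49 ± 0.09, the LIM-only bridging factor Lmo2 by 0.42 ± 0.08, Mycn by 0.35 ± 0.10 and Gata2 by 0.28 ± 0.08, with adjusted p from 0.00182 to 0.0195 and overlapping ranges. Gata3 was below the array median on 7 of 8 MP arrays, so its size is uncertain. The homeobox factor Nkx2-3 was called higher (adjusted p = 0.0131), but it was below the array median on all MP arrays and on 7 of 8 LSK arrays, so its size is not measured.

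Mllt3, a chromatin reader that sustains stem cell self-renewal, was the single member called lower in LSK cells, by 0.30 ± 0.11 (adjusted p = 0.0401), and its ranges of 7.17 to 8.23 and 7.48 to 8.39 overlapped. The call held in 6 of 16 fits that each left out 1 array, and was lost with an adjusted p of up to 0.0935. Runx1, which founds the blood lineage in the embryo, differed by 0.04 (95% interval -0.21 to 0.29), Hhex by 0.01 (-0.19 to 0.21) and the Polycomb subunit Bmi1 by -0.12 (-0.40 to 0.15), none of them called. Of the 15 factors and chromatin regulators, 10 were higher, 1 lower and 4 not called.

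Of the 8 measured receptors and surface proteins, 5 were higher in LSK cells and 3 were not called. Procr, the endothelial protein C receptor used to sort long-term stem cells, lay between 4.93 and 5.59 in LSK cells (median 5.22) and between 4.28 and 4.59 in MP cells (median 4.39). The ranges did not overlap, and all 8 MP arrays were below the array median, so the difference of 0.81 ± 0.10 (1.75-fold, adjusted p = 0.000123) is a lower bound. The same limit holds for Robo4, a guidance receptor that helps anchor stem cells in marrow (0.64 ± 0.09, adjusted p = 0.000314, ranges apart). The junction protein gene Esam was called higher (adjusted p = 0.00414, ranges overlapping), but 6 of 8 LSK arrays and all MP arrays were below the array median, so its size is not measured.

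Cd34, a sialomucin of progenitors, ranged from 9.58 to 10.18 in LSK cells and from 8.41 to 9.51 in MP cells, apart on every array, with a difference of 0.59 ± 0.12 (adjusted p = 0.00314). Kit, the stem cell factor receptor and a sort protein of both fractions, was higher by 0.24 ± 0.09 (adjusted p = 0.0443), a call that held in 4 of the 16 fits that left out an array. The angiopoietin receptor Tek (0.19, 95% interval -0.10 to 0.48), its relative Tie1 (0.20, -0.01 to 0.42) and Slamf1, the stem cell marker CD150 (0.25, -0.09 to 0.59), were not called. Slamf1 was below the array median on 11 of 16 arrays.

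Angpt1, the ligand of Tek, lay between 9.11 and 9.63 in LSK cells (median 9.45) and between 7.42 and 8.72 in MP cells (median 7.91). All LSK arrays were above all MP arrays. The difference was 1.43 ± 0.11 (2.69-fold, adjusted p = 9.46e-06) and was called in each condition, from 1.03 ± 0.22 in unirradiated WT to 1.83 ± 0.22 in irradiated Parp-2-/- mice. Vwf, the clotting factor of platelet-biased stem cells and megakaryocytes, differed by -0.06 (95% interval -0.26 to 0.13).

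Of the remaining 5 members, which restrain growth or signal, 4 were higher in LSK cells. Cdkn1c, the p57 inhibitor of cell cycle entry, was higher by 0.45 ± 0.09 (adjusted p = 0.00254), and its ranges of 4.93 to 5.37 and 4.52 to 4.90 did not meet, the latter below the array median on 6 of 8 arrays. Txnip, the thioredoxin-binding protein that keeps stem cells quiescent, was higher by 0.33 ± 0.10 (adjusted p = 0.0249). The growth suppressor Ndn (adjusted p = 0.0145) and Fgd5 (adjusted p = 0.00918), used as a stem cell reporter, were called higher, but both were below the array median on all 16 arrays, so their sizes are not measured. Ctnnal1, the alpha-catulin gene, differed by 0.25 (95% interval -0.12 to 0.62).

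Every LSK array lay above every MP array for 9 members, namely Hlf, Erg, Prdm16, Procr, Robo4, Cd34, Angpt1, Cdkn1c and Fgd5. This held for 2.21% of all rows. Hlf, Erg and Angpt1 were called higher in each of the 4 conditions alone, as 0.0827% of all rows were. By condition the members called higher were 6 in unirradiated WT (1.29% of all rows), 5 in unirradiated Parp-2-/- (0.827%), 5 in irradiated WT (0.575%) and 5 in irradiated Parp-2-/- mice (0.880%). Beside Hlf, Erg and Angpt1 these were Mecom, Prdm16 and Procr, then Mecom and Cd34, then Procr and Robo4, and again Procr and Robo4. These further calls were less stable than those of Hlf. Cd34 held in 5 of 16 fits that left out an array, and its value of 0.97 was 0.58 without pool 2 of the unirradiated Parp-2-/- MP cells (adjusted p = 0.359). Procr in irradiated Parp-2-/- mice held in 6 of 16 such fits and was lost in 4 of 8 other settings, Procr in irradiated WT held in 11 and in unirradiated WT in 13. Robo4 held in 9 of 16 in irradiated WT and in 13 in irradiated Parp-2-/-, Prdm16 in 13, Mecom in 12 and 14, and Angpt1 in at least 13. Which calls appear in which condition does not show that the difference between cell types depended on condition; its dependence on genotype was not tested.

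**Figure D2:**
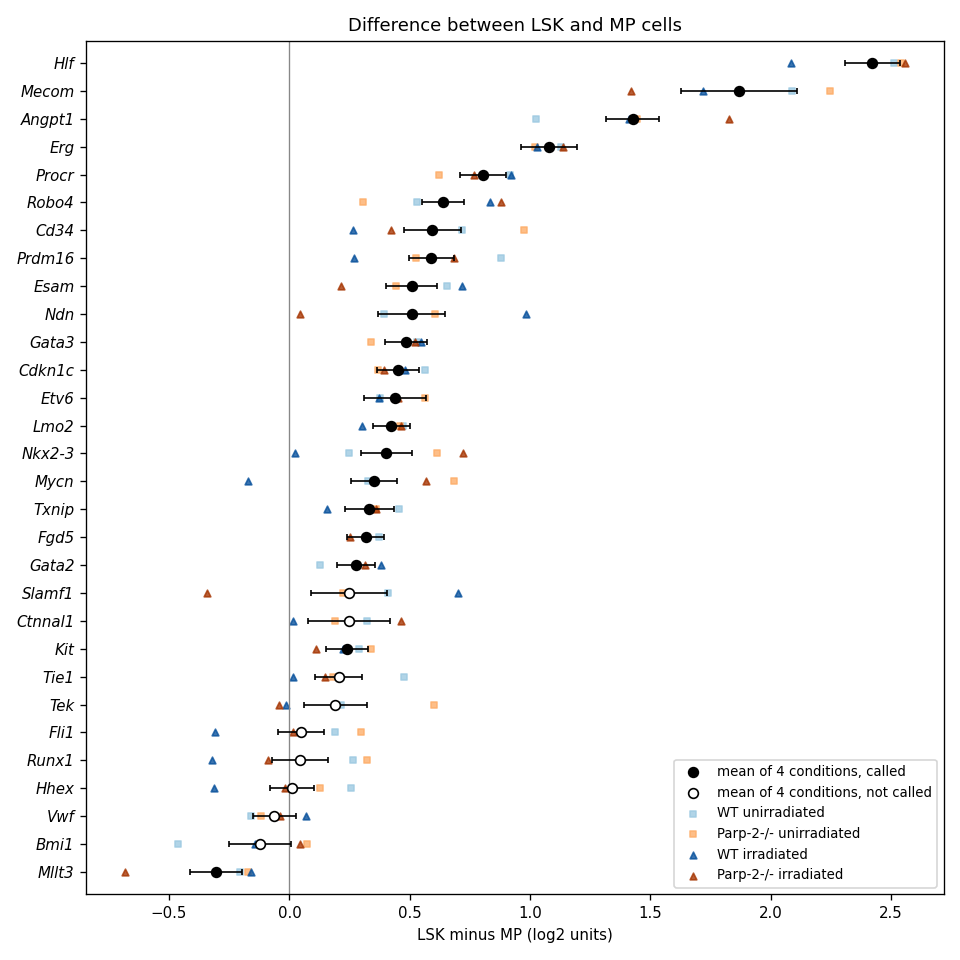
LSK minus MP difference (log2 units, horizontal axis) of each stem cell gene: circles give the mean of 4 conditions with SE bars, filled where called, and small symbols give the 4 conditions, each from 2 LSK and 2 MP arrays. Hlf lies near 2.42 with its 4 conditions between 2.08 and 2.56, and Mllt3 is the lowest at -0.30.

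Genes that work with the members, from further lists, gave a mixed picture in the same comparison. Beside the counts below, 21.4% of all rows were called higher in LSK cells and 17.9% lower. Of 24 measured partner factors, 8 were higher in LSK cells and 2 lower. The largest were Myct1 (1.80 ± 0.18), the homeobox cofactor Meis1 (1.37 ± 0.14), Nfia (-1.25 ± 0.17) and the immediate-early factor Egr1 (1.01 ± 0.26). Of 33 receptors, 11 were higher and 8 lower, led by Flt3, the adhesion receptor gene Adgrg1 (1.34 ± 0.13), Cd27 (1.27 ± 0.12) and Il12rb2 (0.86 ± 0.12). Of 21 genes of quiescence and cell cycle entry, 0 were higher and 9 lower, among them Rb1 (-0.96 ± 0.14), the inhibitor gene Cdkn2c (-0.95 ± 0.18) and the cyclins Ccne1 (-0.86 ± 0.14) and Ccna2 (-0.82 ± 0.10). Rb1 and Cdkn2c are known to restrain the cycle and the cyclins to drive it.

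Markers of other cell types moved with the LSK to MP comparison, where 21.4% of all rows were called higher in LSK cells and 17.9% lower. Of 13 endothelial markers, which include the members Tek and Tie1, 4 were higher in LSK cells. They were led by Emcn (2.07 ± 0.17), which was below the array median on 8 of 16 arrays, so its size is uncertain. Cdh5 and Kdr were among 5 markers below the array median on all 16 arrays, while Pecam1 and Tie1 were above it on all. Summed up as the mean level of the list, the 13 markers ranged from 4.82 to 5.07 on LSK arrays and from 4.49 to 4.71 on MP arrays. Of 12 granulocyte and monocyte markers 7 were lower in LSK cells, as were 4 of 6 erythroid and 4 of 5 mast cell and basophil markers. Alas2, an erythroid gene, was called higher, but it was below the array median on 12 of 16 arrays, so its size is uncertain. Of 8 lymphoid priming markers 6 were higher, with mean levels of 5.66 to 6.16 on LSK and 4.61 to 5.09 on MP arrays. In that list 4 of 8 markers were below the array median on all 16 arrays. B lymphocyte (4 of 6), T and NK (3 of 7) and stromal (3 of 8) markers were called higher by at most 0.45, beside 21.4% of all rows. Of these lists, 2 of 6 B lymphocyte, 5 of 7 T and NK and 4 of 8 stromal markers were below the array median on all 16 arrays. Sizes in these lists are therefore uncertain. Of 7 megakaryocyte markers, Gp9 was higher and Pf4 lower. The part of these cells in the members' differences was not tested.

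The next comparison asked how the members responded to radiation in LSK cells. Averaged over genotypes, 3 members fell and 1 rose 2.5 hours after 5 Gy: Runx1, Mllt3 and Gata2 fell and Txnip rose. Over all rows, 1.64% fell and 2.06% rose in this comparison. The median difference was -0.14 log2 units over the members and -0.01 over all rows. The other 26 members, Hlf, Erg and Procr among them, did not pass the test. Ranges without overlap were not particular to the called members. Every irradiated LSK array was below every unirradiated one for 4 members and above for 1. The 4 include Lmo2, which was not called (highest irradiated 9.22, lowest unirradiated 9.23). The share of all rows with such ranges in LSK cells was not computed.

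Runx1 in unirradiated LSK cells was at 8.81 and 8.62 in the WT pools and at 8.92 and 8.30 in the Parp-2-/- pools. In irradiated LSK cells it was at 7.51 and 7.75 in WT and at 7.28 and 7.80 in Parp-2-/- pools. All irradiated arrays were below all unirradiated arrays. The fall was -1.08 ± 0.16 log2 units (2.11-fold, adjusted p = 0.00291). Within genotypes it was -1.09 ± 0.23 in WT (adjusted p = 0.0368) and -1.07 ± 0.23 in Parp-2-/- cells (adjusted p = 0.0426), the single member called in either, where 0.623% and 0.740% of all rows were called lower. In each genotype the call held in 6 of 16 fits that left out an array. In WT it was lost without any 1 of the 4 WT LSK arrays, with differences from -0.97 to -1.21. In Parp-2-/- cells it was lost without pool 1 of the irradiated (-0.81) or unirradiated (-0.76) LSK cells. The remaining losses came from leaving out MP arrays, which are outside the comparison, with the difference unchanged.

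Gata2, a factor that stem cells and early progenitors depend on, was at 6.66 and 6.47 in unirradiated WT and 6.54 and 6.65 in unirradiated Parp-2-/- LSK cells. After radiation it was at 6.04 and 6.18 in WT and at 6.07 and 5.72 in Parp-2-/- cells. The 2 states did not overlap, and the fall was -0.58 ± 0.11 (1.49-fold, adjusted p = 0.0138). Mllt3 was at 7.60, 8.12, 7.91 and 8.23 on the unirradiated and at 7.52, 7.20, 7.17 and 7.29 on the irradiated LSK arrays, in the same order. The highest irradiated array was just below the lowest unirradiated one, and the fall was -0.67 ± 0.15 (1.59-fold, adjusted p = 0.0287). The Mllt3 call held in 10 of 16 fits that left out an array: it was lost without either irradiated WT MP pool (adjusted p = 0.0501), pool 1 of irradiated or pool 2 of unirradiated Parp-2-/- LSK cells (0.0653 and 0.0854) and pool 2 of either WT LSK state (0.0752 and 0.0894).

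Txnip moved the other way. Its levels were 8.79, 8.59, 8.43 and 8.68 on the unirradiated and 9.20, 9.25, 9.67 and 9.10 on the irradiated LSK arrays, WT pools before Parp-2-/- pools. No irradiated array reached down to the unirradiated ones. The rise was 0.69 ± 0.15 (1.61-fold, adjusted p = 0.0207). It was lost in 3 of 16 fits that left out an array: pool 1 of either Parp-2-/- LSK state (adjusted p = 0.0508 and 0.0731) or pool 2 of unirradiated WT LSK cells (0.0646). With the 8 LSK arrays fitted alone, 0 members were called (190 of all rows were), with an adjusted p of 0.0555 for Runx1, 0.154 for Gata2, 0.167 for Mllt3 and 0.144 for Txnip, and unchanged differences.

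**Figure D3:**
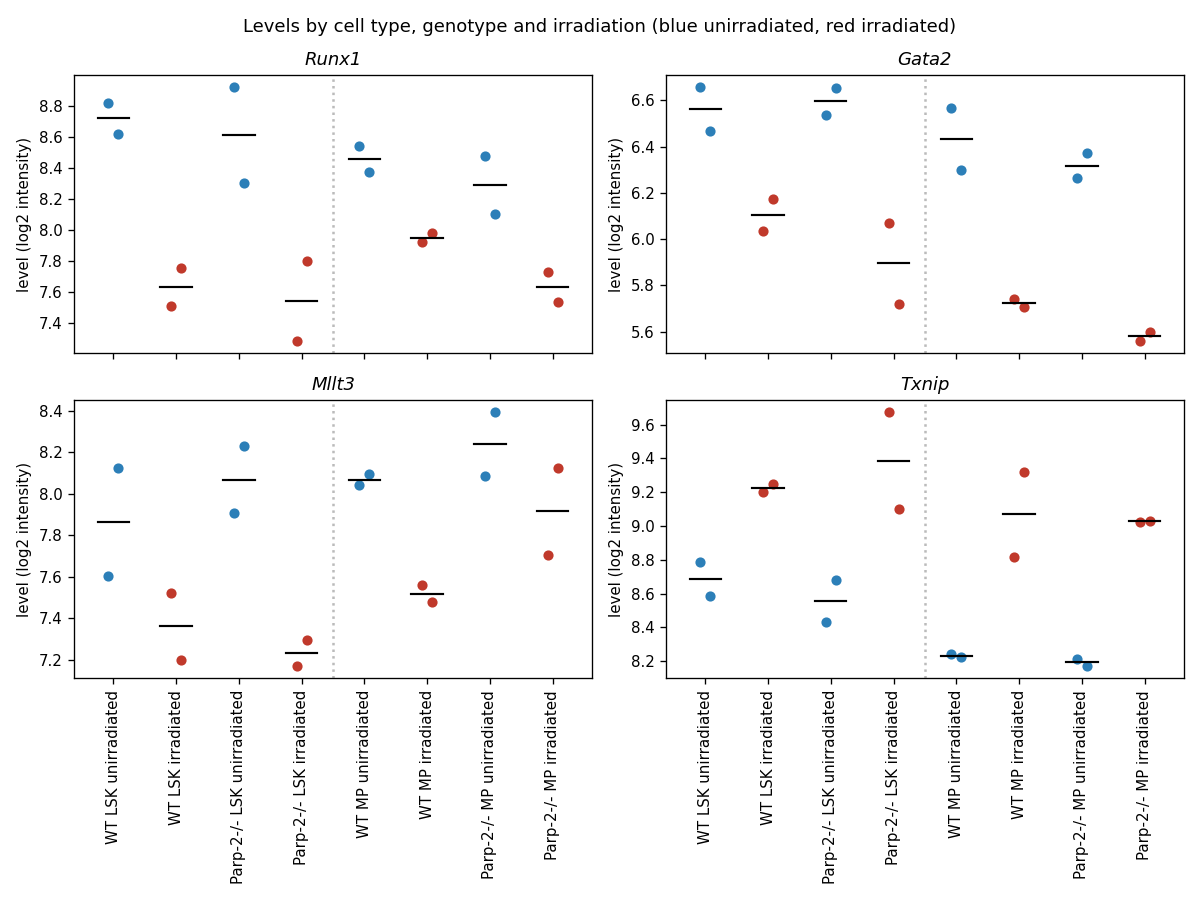
Levels (log2 intensity, vertical axes that do not start at 0) of the 4 members called in the radiation comparison of LSK cells, on each array of the 8 groups, with black bars at the mean of 2 pools. Red irradiated points of Runx1 and Gata2 lie below the blue unirradiated points in every group pair, and those of Txnip lie above.

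MP cells gave the same comparison in a second cell type. There Gata2 fell by 0.72 on the log2 scale (SE 0.11, adjusted p = 0.00439), from 6.26 to 6.57 on unirradiated arrays to 5.56 to 5.74 on irradiated ones. Txnip rose by 0.84 ± 0.15 (adjusted p = 0.00893), from 8.17 to 8.24 on unirradiated arrays to 8.82 to 9.32 on irradiated ones. Neither gene's ranges met, but such ranges were also found in members that were not called. Every irradiated MP array was above every unirradiated one for 3 members, Tek and Tie1 among them. It was below for 5 members, among them Runx1, Kit, Angpt1 and Vwf. The share of all rows with such ranges in MP cells was not computed. Over all rows, 0.536% fell and 1.40% rose in MP cells. Runx1 was lower in every irradiated MP array, 7.53 to 7.98 against 8.10 to 8.54, a difference of -0.58 ± 0.16 that was not called (adjusted p = 0.119), although it was with the 8 MP arrays fitted alone (adjusted p = 0.0182). Mllt3 (-0.44 ± 0.15), Angpt1 (-0.53 ± 0.16) and Tek (0.55 ± 0.19) were not called.

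The difference between cell types in the radiation response was tested directly. It was called for 0 of 30 members and 0% of all rows (limma, lowest member adjusted p 0.678), where 1 member, Robo4, and 1503 rows had an unadjusted p under 0.05. For Runx1 the LSK minus MP radiation difference was -0.50 (95% interval -0.998 to 0.0013), for Gata2 0.15 (-0.20 to 0.49), for Mllt3 -0.23 (-0.70 to 0.23) and for Txnip -0.15 (-0.59 to 0.30). Intervals of this width do not show that the cell types responded alike. Across both cell types and genotypes, every irradiated array was below every unirradiated array for Gata2 and Runx1 (0.309% of all rows) and above for Txnip (0.906%), a count made after the values were seen.

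**Figure D4:**
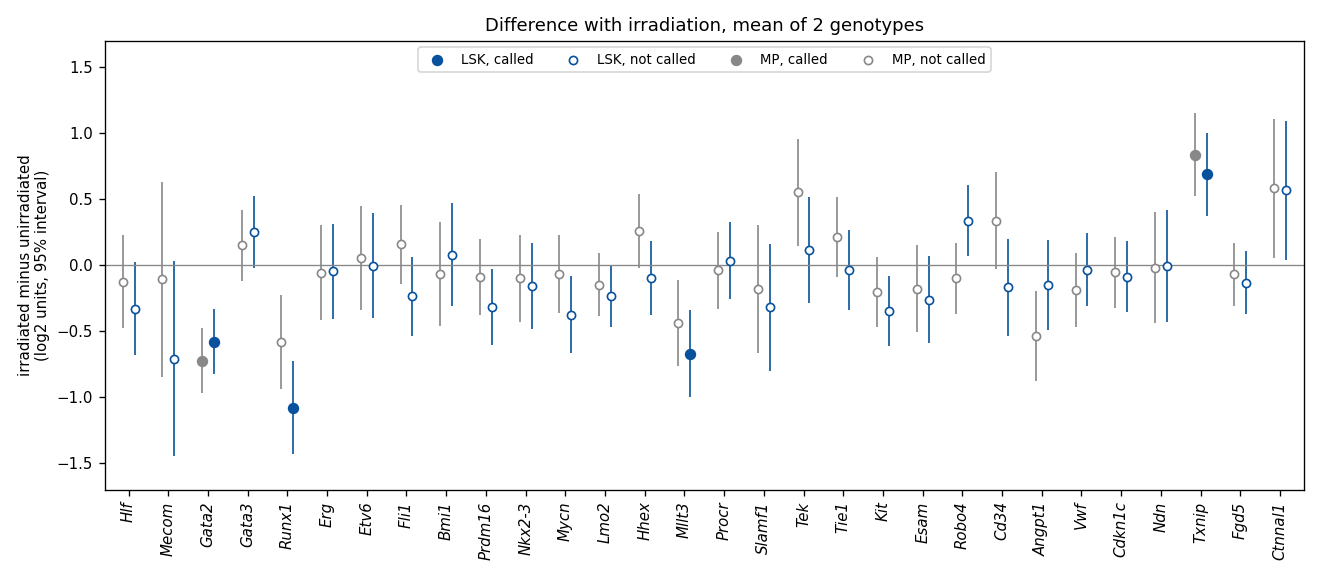
Irradiated minus unirradiated difference (log2 units, vertical axis) of each stem cell gene in LSK cells (blue) and MP cells (grey), mean of 2 genotypes, with 95% intervals and filled symbols where called. Runx1 in LSK cells is lowest at -1.08 and Txnip in MP cells highest at 0.84.

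Mecom and Ctnnal1 had wide intervals in the radiation comparison. Mecom was at 6.62, 6.37, 7.23 and 6.50 on the unirradiated LSK arrays and at 5.81, 6.21, 4.98 and 6.88 on the irradiated ones, with 1 irradiated pool low and its partner among the high values. Without that partner, pool 2 of irradiated Parp-2-/- LSK cells, Mecom was called lower (adjusted p = 0.0191), and without the other pool Ctnnal1 was called higher (adjusted p = 0.00455) while Mllt3 and Txnip were not called. The second Mecom row had the pools the other way round, 5.97 in pool 1 and 4.38 in pool 2 of irradiated Parp-2-/- LSK cells. Its radiation difference was 0.45 ± 0.31 (adjusted p = 0.55), so the Mecom rows differed in sign and neither was called with all arrays. The second row was below the array median on most LSK arrays, pool 2 of irradiated Parp-2-/- cells among them, so its size is not measured. Gaps between the 2 pools of a group had a median of 0.20 log2 units over the members and 0.19 over all tested rows, and 3 of 240 member gaps passed 1 log2 unit, beside 2.39% of all rows' gaps. These were Mecom and Ctnnal1 in irradiated Parp-2-/- LSK cells and Ndn in unirradiated Parp-2-/- LSK cells.

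Among the further genes in LSK cells, the partner Lyl1, a bHLH factor, fell after radiation (-0.86 ± 0.17, adjusted p = 0.0131), 1 of 24. Beside these counts, 2.06% of all rows rose and 1.64% fell in LSK cells, and 1.40% rose and 0.536% fell in MP cells. Of 33 receptors, Il12rb2 (1.66 ± 0.17) and Csf3r rose and Cd48 (-0.65 ± 0.15) fell in LSK cells. Of 21 cell cycle genes, 2 rose and 2 fell, the largest being the pocket protein gene Rbl2 (1.63 ± 0.18, adjusted p = 0.000334) and the p27 gene Cdkn1b (-1.60 ± 0.15, adjusted p = 6.08e-05). In MP cells, 0 of 24 partners rose, and Gfi1b (-1.27 ± 0.14) and Gata1 (-1.01 ± 0.21) fell, Epor fell among receptors (-0.77 ± 0.17), and Ccne1 (-1.32 ± 0.19) and Rbl2 (1.18 ± 0.18) led the cell cycle genes, 1 of which rose and 3 fell. Of the marker lists of other cells, each had at most 1 gene called with radiation in LSK cells. Higher were 1 of 7 megakaryocyte markers (Pf4, 1.20 ± 0.28, list median -0.06), 1 of 12 granulocyte and monocyte markers (Elane, 1.20 ± 0.25, list median 0.16) and 1 of 5 mast cell markers (Mcpt8, 1.07 ± 0.25, list median 0.16). Lower were 1 of 8 lymphoid priming markers (Dntt, -1.16 ± 0.24, list median -0.40) and 1 of 6 B lymphocyte markers (Cd79a, list median 0.03). So were 1 of 8 stromal (Pdgfrb) and 1 of 13 endothelial markers (Pecam1). Cd79a was below the array median on all 16 arrays, so its size is not measured. In MP cells Gp5, 1 of 7 megakaryocyte markers, was lower (-1.27 ± 0.26), as was Epor, also 1 of 6 erythroid markers. Their part in the members' responses was not tested.

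The last comparison asked whether loss of Parp-2 altered the members in LSK cells. Averaged over irradiation states, limma called 0 of 30 members between genotypes, and 1 member had an unadjusted p under 0.05 (3.33%, beside 9.15% of all rows). Calls were rare everywhere: 0.0479% of all rows passed. In unirradiated LSK cells 0 members and 0% of rows were called, with 0 members and 2137 rows at an unadjusted p under 0.05. In irradiated LSK cells 0 members and 0.0174% of rows were called, with 2 members and 2193 rows at that level. In MP cells 0 members and 0.0131% of rows were called, with 0 members and 440 rows at that level.

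Esam gave a mean difference of -0.42 (95% interval -0.75 to -0.09, adjusted p = 0.419), the farthest from 0, but all 4 Parp-2-/- and 2 of 4 WT LSK arrays were below the array median, so its size is uncertain. Its levels were 5.26 and 4.81 in unirradiated WT, 4.69 and 4.81 in unirradiated Parp-2-/-, 5.18 and 4.63 in irradiated WT and 4.39 and 4.32 in irradiated Parp-2-/- cells, overlapping between genotypes. Ndn in irradiated cells was at 3.93 and 3.72 in WT and at 3.08 and 3.12 in Parp-2-/- pools (-0.73, 95% interval -1.32 to -0.13, adjusted p = 0.433), below the array median throughout. Slamf1 in irradiated cells differed by -0.61 (-1.29 to 0.07).

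For the members that marked LSK cells most, the genotype difference was -0.05 for Hlf (95% interval -0.40 to 0.30) and 0.15 for Mecom (-0.59 to 0.89). The interval for Mecom takes in sizeable changes in either direction. Across the 30 members the mean differences lay between -0.42 and 0.28, with a median of -0.06 beside -0.01 for all rows. No member had every Parp-2-/- LSK array apart from every WT LSK array, a separation that 2.70% of all rows showed.

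The genotype by radiation interaction in LSK cells was called for 0 of 30 members and 0.00871% of all rows (limma), with 0 members and 2187 rows at an unadjusted p under 0.05. The response of Runx1 in Parp-2-/- minus that in WT cells was 0.02 (95% interval -0.69 to 0.73), that of Gata2 -0.25 (-0.74 to 0.25), that of Mllt3 -0.33 (-0.99 to 0.32) and that of Txnip 0.29 (-0.34 to 0.92). With 2 pools per group, these intervals leave room for sizeable differences. None of the 24 partners, 33 receptors and 21 cell cycle genes was called between genotypes in LSK cells, and neither was any marker of another cell type.

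**Figure D5:**
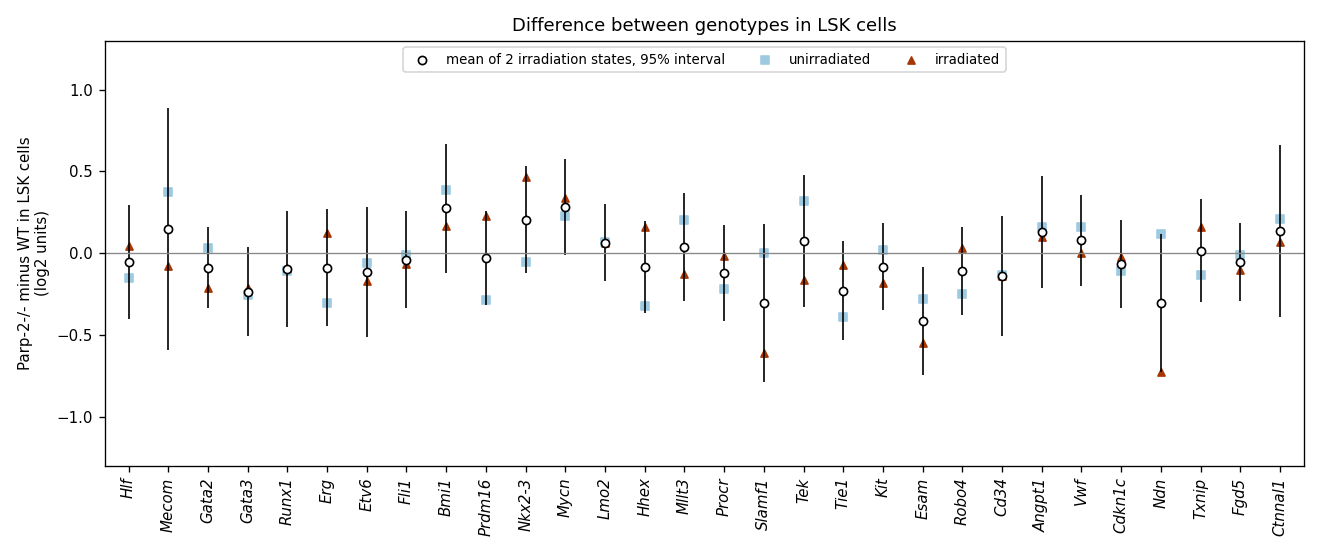
Parp-2-/- minus WT difference in LSK cells (log2 units, vertical axis) of each stem cell gene: open circles give the mean of 2 irradiation states with 95% intervals, squares the unirradiated and triangles the irradiated cells, each from 2 arrays per genotype. No member was called; the interval of Esam (-0.75 to -0.09) is the one that leaves out 0.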

How the data were processed

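RNA levels were measured on 16 single-colour Affymetrix arrays. The authors deposited log2 values per transcript cluster. Robust multi-array averaging (RMA), affy 2.10, R 2.15 and limma are listed in the submitters' processing notes, with no role or order. That the scale is log2 follows from the range of the values, which were used as deposited. The set of arrays normalised together is not given in the sources used here. Of 34760 rows, 21640 carried 1 gene symbol, 1321 several and 11799 none, by GEO's platform annotation; the 22961 with at least 1 symbol were tested. All 16 arrays entered 1 fit of 8 group means in limma 3.58.1 (R 4.3.3; eBayes with 8 residual and 4.35 prior degrees of freedom), with two-sided tests, Benjamini-Hochberg adjustment over 22961 rows in each of 15 comparisons, and calls at an adjusted p under 0.05. Differences are in log2 units ± SE, with n = 8 arrays per cell type, 4 per irradiation state or genotype within a cell type, or 2 per group. The number of arrays limits the precision.

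Levels under an array's median were not taken as above background: 17 members were above it on all arrays and 2 below it on all. The members, the further lists and the tests were chosen with earlier results of these data known. All members were named in the comparison of cell types; of each further list, up to 4 called genes with the largest difference there and up to 2 in each radiation or genotype comparison. Csf3r, Alas2 and the markers were named outside that rule, after their values were seen. Pool numbers were not used to pair the samples in the main fit. In 2 of 28 pairs of groups the correlation of same-numbered deviations was above 0.1 (range -0.17 to 0.23). Pairs of LSK and MP groups with the same genotype and irradiation state were not examined apart from the rest. Whether their same-numbered pools came from the same mice was not tested. Alternatives were a pool block, the arrays of a comparison alone, quantile normalisation, median centring, 2 other row filters, an intensity trend, the mean of a gene's rows and leaving out each array.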

Additional observations from a re-analysis of the deposited data

Results flagged for a closer look

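Hhex, a homeobox factor of early blood progenitors, had irradiated values on opposite sides of the unirradiated ones in the LSK cells of the 2 genotypes. In WT it was at 8.94 and 8.93 unirradiated and at 8.30 and 8.87 irradiated, lower on both irradiated arrays. In Parp-2-/- cells it was at 8.66 and 8.55 unirradiated and at 8.77 and 8.73 irradiated, higher on both. The difference between the responses was 0.49 (95% interval -0.07 to 1.05) and was not called in limma (adjusted p = 0.594). It was not the largest: values ran from -0.84 for Ndn, a low-signal gene, to 0.52 for Prdm16. Irradiated LSK arrays apart from unirradiated ones, 2 against 2, were common among the 30 members. In WT they were higher for 5 and lower for 12, and in Parp-2-/- cells higher for 4 and lower for 10. The share of all rows was not computed.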

How the results depend on the processing

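Of 21 members called between LSK and MP cells, 17 stayed called whichever array was left out (17 to 21 members called), and 12 of these also under every other setting tried. Median centring gave 16 (losing Gata2, Etv6, Mycn, Kit and Txnip), quantile normalisation 17 (losing Nkx2-3, Mllt3, Ndn and Fgd5) and a block for pool number 20 (losing Kit); 4 members also passed the 2-fold rule. Centring moved the median of all rows in that comparison from 0.12 to 0.04. Single conditions were less stable. Leaving out arrays gave 1 to 6 members in unirradiated WT, 1 to 6 in unirradiated Parp-2-/-, 1 to 6 in irradiated WT and 2 to 5 in irradiated Parp-2-/- mice, and fitting their own arrays alone gave 2, 1, 2 and 2. Quantile normalisation gave 3 in irradiated WT. For radiation in LSK cells, leaving out arrays gave 2 to 5 members (2 without pool 2 of unirradiated WT cells), 0 to 1 in WT and 0 to 3 in Parp-2-/-; their own arrays alone gave 0 in each. In Parp-2-/- the pool block and median centring gave 0, and a filter on rows above the array median 2. In MP cells leaving out arrays gave 1 to 3, and the MP arrays alone 4. Txnip in MP cells was lost without pool 2 of irradiated WT cells (adjusted p = 0.0549). The pool block changed no other count by over 1.5 times. Genotype and interaction counts stayed at 0 under all settings run. Fitting a comparison's arrays alone was not a different fit where all 16 arrays enter. Each left-out array that leaves a group with 1 pool assumes that the pool varies like the other groups.

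No called member changed sign. Of 10695 member values under alternatives, 363 had the opposite sign, all of members not called; 81 belong to genes and comparisons named in the text and are covered here, and the other 282 were only counted. The cause was not tested. Between LSK and MP cells, median centring turned Runx1 (-0.035), Fli1 (-0.030) and Hhex (-0.067), and quantile normalisation Bmi1 (0.056). With arrays left out, values there were -0.034 to 0.12 for Runx1, -0.0025 to 0.099 for Fli1, -0.059 to 0.084 for Hhex and -0.13 to 0.0014 for Vwf. For radiation in LSK cells, centring turned Etv6 (0.018) and Ndn (0.018), and left-out ranges were -0.23 to 0.13 for Erg, -0.18 to 0.17 for Etv6, -0.12 to 0.28 for Bmi1, -0.24 to 0.044 for Hhex, -0.11 to 0.18 for Procr, -0.024 to 0.25 for Tek, -0.15 to 0.078 for Tie1, -0.16 to 0.094 for Vwf and -0.26 to 0.25 for Ndn. Between genotypes, the mean of the Mecom rows gave -0.017, and quantile normalisation turned Lmo2 (-0.010), Mllt3 (-0.0083) and Txnip (-0.075). There left-out ranges were -0.16 to 0.054 for Hlf, -0.33 to 0.62 for Mecom, -0.25 to 0.056 for Runx1, -0.27 to 0.090 for Erg, -0.29 to 0.058 for Etv6, -0.13 to 0.052 for Fli1, -0.13 to 0.070 for Prdm16, -0.034 to 0.16 for Lmo2 and -0.23 to 0.061 for Hhex. They were also -0.091 to 0.17 for Mllt3, -0.26 to 0.024 for Procr, -0.064 to 0.21 for Tek, -0.18 to 0.012 for Kit, -0.048 to 0.21 for Vwf, -0.15 to 0.019 for Cdkn1c, -0.13 to 0.16 for Txnip, -0.16 to 0.045 for Fgd5 and -0.23 to 0.50 for Ctnnal1. For the interaction of genotype and radiation, Runx1 was -0.013 after centring and -0.29 to 0.33 with arrays left out. Low signal limits what is known of Ndn, Fgd5, Nkx2-3, Esam and Slamf1 in both cell types and of Procr, Robo4, Mecom, Gata3 and Cdkn1c in MP cells.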
